A study of Homo sapiens with 18 samples.

Results

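The mitosis and spindle genes described here are 34 human genes whose products drive cells into mitosis, build the spindle, attach and part the chromosomes and split the cell. They were chosen by symbol, and all 34 were found among the 35168 genes of the tables. The samples are 18 RNA-seq libraries of the H1 line of human embryonic stem cells (hESCs), 3 for each genotype on each of 3 days of hematopoietic differentiation. USB1 mut cells, called USB1 mutants, carry a deletion of a single base made with CRISPR/Cas9 in USB1, which encodes an RNA exonuclease and is mutated in poikiloderma with neutropenia. WT cells are the H1 line without it. The groups are USB1 mutant and WT embryonic stem cells at D0, USB1 mutant and WT hematopoietic progenitors at D16, and USB1 mutant and WT mature blood cells at D30. The mutant cells came from picked colonies, the number of independent clones is not stated, and no source states that the 3 libraries of a group came from separate cultures. The p-values therefore measure the spread between these libraries, which may be technical.

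Total counts ran between 4125125 and 19368927 per library, and the shallowest library, USB1 mutant D30 replicate 3, still had at least 7 counts for every member. Levels are given as CPM, counts scaled to a fixed library size. USB1 itself had 84.0 to 89.0 CPM in mutants and 73.9 to 85.2 CPM in WT at D0, 47.5 to 58.3 CPM and 50 to 59.4 CPM at D16, and 41.9 to 65.6 CPM and 61.7 to 70.5 CPM at D30. The ranges overlapped on each day, and a deletion of 1 base cannot be read from gene counts, so this level checks no label. Summed pluripotency markers (8 genes, POU5F1 and NANOG among them) reached 5741 to 6499 CPM in mutants and 5467 to 6215 CPM in WT at D0. At D16 the 8 progenitor markers, CD34 and PTPRC among them, summed to 2237 to 2414 CPM in mutants and 2460 to 2912 CPM in WT. No marker of those lists was at 0 in all libraries of the group it should mark.

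Mitosis begins when cyclin B with the kinase CDK1 becomes active, and it ends when the anaphase promoting complex, with CDC20, destroys cyclin B and frees separase. In between, kinetochores on the centromeres catch spindle microtubules, and the spindle checkpoint holds back anaphase until all are attached. The RNAs of these genes rise late in the cell cycle, so their level in a tissue is widely read as a sign of dividing cells. In bulk RNA, fewer cells of a dividing type and less RNA per cell cannot be told apart.

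A promoter element found in many of these genes is the CHR, with the letters TTTGAA, or in a variant form TTTAAA, which is bound by the MuvB core of the DREAM and MYB-FOXM1 complexes. CCAAT, the box bound by NF-Y, often lies upstream of it. RefSeq promoters on GRCh38.p14, each 250 bases before to 50 bases after the start of a transcript, were held for 29 of the 34 genes, while AURKA, BIRC5, BUB3, TPX2 and TTK are named only. The letters were searched on both strands. TTTGAA was found in 21 of the 29 genes (72.4%) and in 18.2% of the 27305 genes with such a promoter. TTTAAA was found in 12 of the 29 (41.4%) and in 14.5% of all. Either form was found in 26 of the 29 (89.7%) against 27.9%, and the 3 genes without one were AURKB, BUB1 and CCNA2. CCAAT was found in 24 of the 29 (82.8%) and in 39.7% of all, and the 5 genes without it were BUB1B, CENPE, KIF2C, NDC80 and NUF2. A match of letters is a description and not a bound site.

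The promoters of 6 genes are shown, each called between the genotypes on at least 1 day, because they differ in which letters they hold and where. Each is the 120 bases that end just before the RefSeq start, on the strand of the gene, and capitals mark TTTGAA, the variant TTTAAA or the box CCAAT. On the other strand TTTGAA reads as TTCAAA, and the box reads as ATTGG. The windows are chr5:69167030-69167149 on the plus strand for CCNB1, chr10:92593010-92593129 on the plus strand for KIF11, chr5:138178992-138179111 on the plus strand for KIF20A, chr1:43358861-43358980 on the plus strand for CDC20, chr15:90994536-90994655 on the minus strand for PRC1 and chr2:110678064-110678183 on the minus strand for BUB1.
CCNB1: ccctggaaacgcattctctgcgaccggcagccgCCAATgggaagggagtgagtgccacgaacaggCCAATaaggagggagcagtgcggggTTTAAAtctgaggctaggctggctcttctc
KIF11: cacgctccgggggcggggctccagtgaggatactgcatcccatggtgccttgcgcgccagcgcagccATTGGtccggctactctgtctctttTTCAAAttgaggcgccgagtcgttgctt
KIF20A: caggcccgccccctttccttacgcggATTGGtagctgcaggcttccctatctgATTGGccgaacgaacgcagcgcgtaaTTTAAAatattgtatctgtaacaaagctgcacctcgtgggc
CDC20: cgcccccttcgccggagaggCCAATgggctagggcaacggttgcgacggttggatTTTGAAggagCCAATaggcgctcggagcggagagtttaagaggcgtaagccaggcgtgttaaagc
PRC1: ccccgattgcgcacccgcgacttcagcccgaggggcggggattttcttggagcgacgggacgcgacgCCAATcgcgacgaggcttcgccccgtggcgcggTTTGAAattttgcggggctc
BUB1: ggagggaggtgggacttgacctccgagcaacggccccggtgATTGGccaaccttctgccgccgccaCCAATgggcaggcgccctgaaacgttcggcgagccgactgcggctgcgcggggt
In KIF11 the TTCAAA begins at base -28 and the ATTGG at base -53 from the start, and in PRC1 the TTTGAA begins at -20 and the CCAAT at -53. In CCNB1 the TTTAAA begins at -30, with CCAAT at -87 and -55. KIF20A has TTTAAA at -41 below its pair of ATTGG at -94 and -67. CDC20 differs in that its TTTGAA, at -65, lies between CCAAT at -100 and CCAAT at -55. BUB1 has ATTGG at -79 and CCAAT at -54 and neither form of the CHR in the window.

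**Figure D1:**
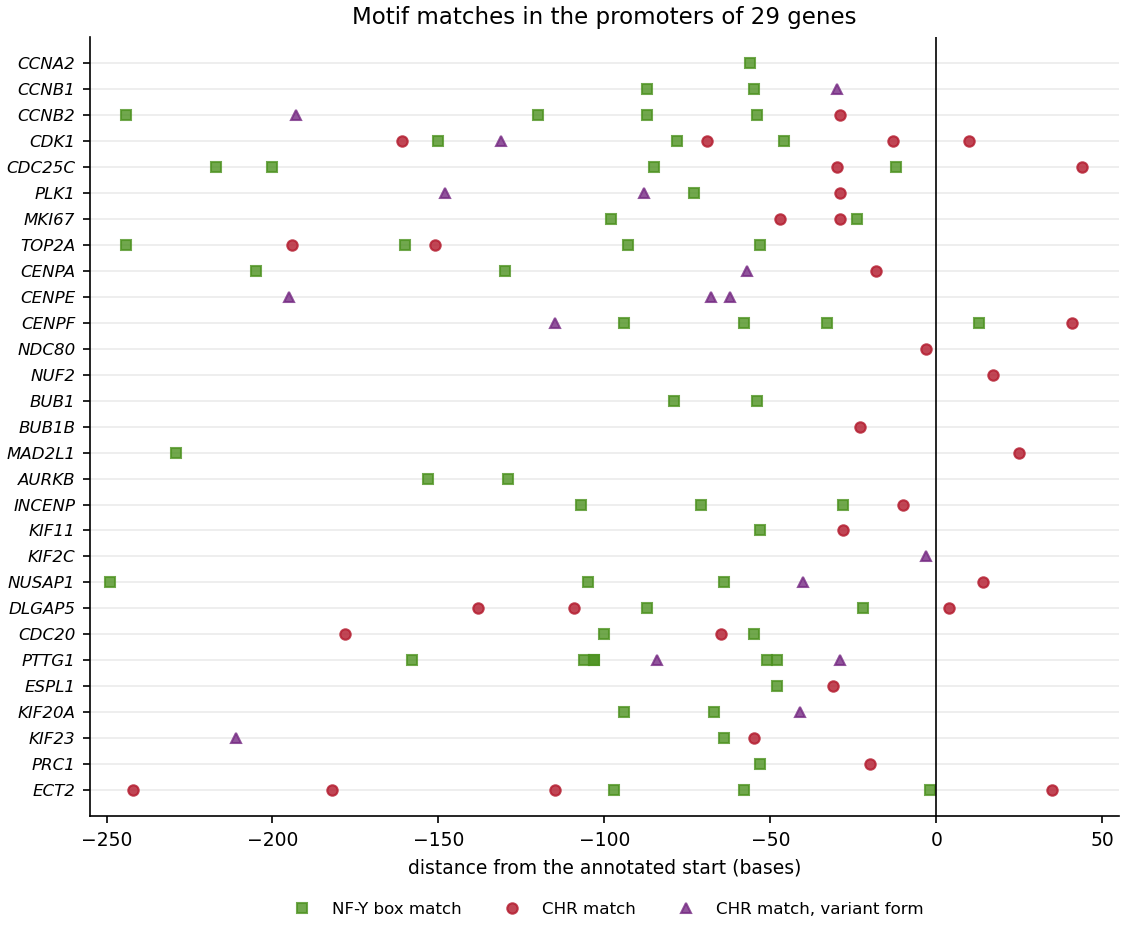
Positions of letter matches in the RefSeq promoters of 29 mitosis and spindle genes (1 line per gene, all its promoters together), from 250 bases before to 50 bases after the transcript start (x axis, distance in bases). Symbols mark TTTGAA (CHR), TTTAAA (variant form) and CCAAT (NF-Y box) on either strand, and 26 of the 29 genes have a match to either CHR form.

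The geometric mean level of the 34 genes was lowest at D30 in both genotypes, with single exceptions such as MKI67 in WT, which averaged 216 ± 16.1 CPM at D0, 731 ± 27.8 CPM at D16 and 323 ± 75.5 CPM at D30 (SD, n = 3). The geometric mean over the 34 genes was 79.0, 80.8 and 79.7 CPM in mutants and 84.4, 81.8 and 76.3 CPM in WT at D0. At D16 it was 99.6, 82.5 and 89.4 CPM in mutants and 63.1, 71.0 and 82.7 CPM in WT, and the lowest mutant library lay just below the highest WT library. At D30 it was 17.3, 15.2 and 13.8 CPM in mutants and 26.8, 25.9 and 20.7 CPM in WT, with no overlap. In some groups 1 library was at the edge for most genes: at D16, WT replicate 1 was the lowest WT library for 27 of the 34 genes and WT replicate 3 the highest for 31, and at D30 WT replicate 3 was the lowest for 27. In mutants at D16, replicate 1 was the highest mutant library for 27 genes and replicate 2 the lowest for 24. In other groups the edges were more spread. In mutants at D0, replicate 1 was the lowest for 14 genes and the highest for 15. In mutants at D30, the lowest library was replicate 1, 2 and 3 for 6, 10 and 18 genes. CPM values here are on 1 scale for all 18 libraries (edgeR TMM).

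**Figure D2:**
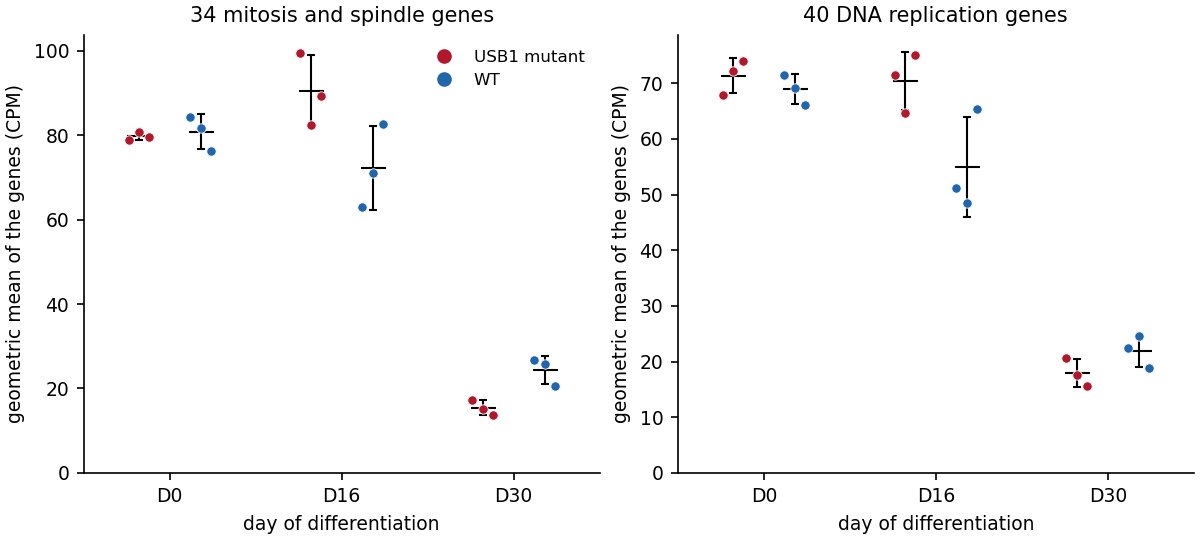
Geometric mean level (y axis, CPM) of the 34 mitosis and spindle genes (left) and of 40 DNA replication genes (right) in each library by day, USB1 mutants left of WT, with points for libraries and bars for mean ± SD (n = 3). For the mitosis and spindle genes the groups overlap at D0 and slightly at D16, and at D30 the mutant libraries, 13.8 to 17.3 CPM, lie below the WT libraries, 20.7 to 26.8 CPM.

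Levels of different genes are compared per transcript length, as TPM, which corrects for the length of the transcripts (mean ± SD, n = 3 for each group). At D0 CDC20, the activator of the anaphase promoting complex, led with 222.7 ± 21.6 TPM in mutants and 205.5 ± 14.4 TPM in WT. PTTG1, the securin that holds separase in check, followed with 159.8 ± 7.27 TPM in mutants and 158.4 ± 4.94 TPM in WT, and CCNB1 (cyclin B) with 135.9 ± 7.55 and 145.6 ± 5.46 TPM. The order of these 3 genes was the same in both genotypes, and PTTG1 shares reads with near-identical copies, so its level is uncertain. At D16 PTTG1 led with 163 ± 14.5 TPM in mutants and 142 ± 21.2 TPM in WT, ahead of the spindle protein NUSAP1 with 117 ± 13.3 and 97.3 ± 2.94 TPM. At D30 the order changed: in mutants BUB3 (48.6 ± 3.36 TPM) and ECT2 (46.3 ± 10.8 TPM) led and did not differ beyond their spread, and in WT the same held for NUSAP1 (63.9 ± 15.7 TPM), BUB3 (56.5 ± 9.24 TPM), ECT2 (52.0 ± 6.66 TPM) and PRC1 (48.2 ± 18.2 TPM). The phosphatase gene CDC25C was lowest at D30, with 1.13 ± 0.208 TPM in mutants and 3.16 ± 1.19 TPM in WT.

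**Figure D3:**
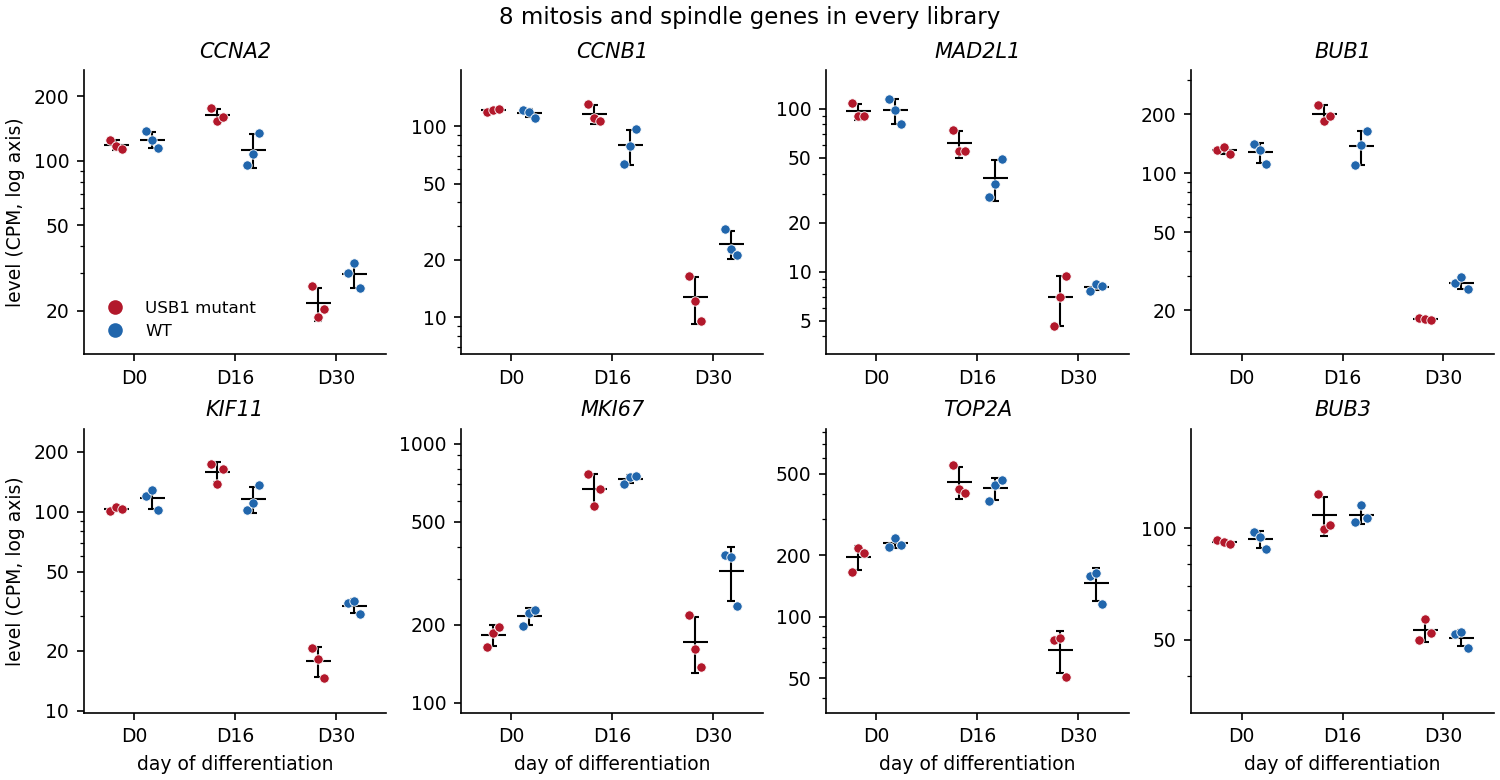
Levels of 8 mitosis and spindle genes in every library (y axis, CPM on a log scale) by day, USB1 mutants left of WT, with points for libraries and bars for mean ± SD (n = 3). KIF11 and BUB1 lie higher in mutants at D16 and lower at D30, MKI67 and TOP2A lie lower in mutants at D30, and the groups of BUB3 overlap on each day.

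At D0, whether undifferentiated USB1 mutants and WT hESCs differ in these genes was asked with edgeR's quasi-likelihood test over 14719 genes, calling a gene at a Benjamini-Hochberg adjusted p under 0.1. None of the 34 genes was called, when 1.07% of all genes were called higher and 1.87% lower. DESeq2 and limma-voom also called 0 members. Of the 14719 genes, DESeq2 called 251 higher and 349 lower, and limma-voom 157 and 270. An unadjusted p under 0.05 (edgeR) was found for 5 of the 34 genes and for 2195 of the 14719, a like share. The median log2 fold change of the members was -0.01, and 16 were positive and 18 negative.

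The 4 genes with the smallest p at D0 were 2 on either side. NUF2, a subunit of the kinetochore complex that grips microtubules, had 16.0, 17.5 and 15.2 CPM in mutants and 25.7, 22.4 and 17.4 CPM in WT, with log2 fold change -0.43 (SE 0.15, adjusted p = 0.22, edgeR). CDC20 had 205, 215 and 239.9 CPM in mutants and 177, 178 and 195 CPM in WT (log2 0.26, SE 0.09, adjusted p = 0.224). All mutant libraries of CDC20 lay above all WT libraries. AURKB, the kinase that corrects wrong attachments, had 43.5, 43.1 and 44.7 CPM in mutants and 33.0, 36.9 and 39.7 CPM in WT (log2 0.26, adjusted p = 0.271). MKI67, which coats mitotic chromosomes and is the antigen Ki-67, had 164, 187 and 196 CPM in mutants and 198, 221 and 229 CPM in WT (log2 -0.24, adjusted p = 0.293). The groups of AURKB and MKI67 did not overlap, and those of NUF2 did. At D0 same-numbered libraries of the genotypes deviated together, and with the replicate number as a block 6 members were called, when 6.04% of all genes were called higher and 5.63% lower. CDC20 was then higher (log2 0.26, adjusted p = 0.0406), and MKI67 (-0.25, adjusted p = 0.0470), CENPF (-0.25, 0.0497), NUF2 (-0.41, 0.0766), CENPE (-0.21, 0.0838) and TOP2A (-0.23, 0.0898) were lower.

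At D16, where the libraries are of hematopoietic progenitors, the question was the same. Of the 34 genes, 12 were called higher and 0 lower in mutants, when 13.1% of the 14528 genes tested were called higher and 15.3% lower. Of the 34, 30 had a positive log2 fold change, with a median of 0.31 against 0.01 over all genes tested. All 3 mutant libraries lay above all 3 WT libraries for 16 members, which held for 20.8% of all genes. The call depends on single libraries: without WT replicate 1 or without WT replicate 2 it was 0 genes, without mutant replicate 1 it was 2 (BIRC5 and CENPA), without mutant replicate 3 it was 6, and without WT replicate 3 it was 19. The share of all genes called higher moved with it, and was 6.77%, 6.8%, 8.46%, 8.02% and 19.5% in these fits. With the replicate number as a block 14 were called (18.3% of all genes). With the deposited transcript lengths as offsets 9 were called (9.42% of all genes), and BUB1B, CENPA and MAD2L1 were not among them.

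Of the genes of mitotic entry, 2 of 7 were called. CCNA2, cyclin A, had 177, 154 and 161 CPM in mutants and 95.6, 107 and 135 CPM in WT. CCNB1, whose promoter is shown above with TTTAAA, had 131, 109.9 and 106 CPM in mutants and 63.4, 78.5 and 96.4 CPM in WT. Both genes were higher in every mutant library than in any WT library, by 0.50 on the log2 scale (CCNA2, SE 0.14, adjusted p = 0.0311; CCNB1, SE 0.16, adjusted p = 0.0454). CDK1, the partner kinase of both cyclins, was at 0.42 with an adjusted p of 0.103 and was not called. Of the checkpoint genes, 3 of 5 were called: MAD2L1, BUB1 and BUB1B. MAD2L1, the MAD2 protein that inhibits CDC20, had 74.4, 54.8 and 54.9 CPM in mutants and 28.7, 34.7 and 49.4 CPM in WT, and was higher by 0.67 (SE 0.20, adjusted p = 0.0378), the largest fold change of the 12. BUB1, a checkpoint kinase with no CHR letters in its promoter, had 224, 185 and 197 CPM in mutants and 109.7, 139.6 and 164 CPM in WT (log2 0.52, SE 0.15, adjusted p = 0.0377). BUB3, the partner that brings BUB1 to the kinetochore, was at -0.04 (adjusted p = 0.843), with 124, 99.6 and 102 CPM in mutants and 104, 116 and 106 CPM in WT.

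ECT2, which starts the contractile ring in cytokinesis, had 98.8, 68.2 and 77.5 CPM in mutants and 43.9, 49.9 and 63.3 CPM in WT at D16 (log2 0.60, SE 0.17, adjusted p = 0.0324). BIRC5, survivin of the chromosomal passenger complex, had 68.0, 71.7 and 79.5 CPM in mutants and 46.9, 46.6 and 60.3 CPM in WT (log2 0.47, SE 0.14, adjusted p = 0.0354). In both genes the lowest mutant library lay above the highest WT library. CENPA, the histone variant that marks centromeres, had 16.3, 16.4 and 17.6 CPM in mutants and 10.8, 9.86 and 13 CPM in WT (log2 0.54, SE 0.17, adjusted p = 0.044), and CDC20 had 87.6, 74.9 and 112 CPM in mutants and 59.2, 50.9 and 73.9 CPM in WT (log2 0.54, SE 0.18, adjusted p = 0.0537). The other called genes were the motor KIF11 (0.42, adjusted p = 0.0634), the microtubule-depolymerizing motor KIF2C (0.42, 0.0539), the kinetochore subunit NDC80 (0.41, 0.0803) and BUB1B (0.45, 0.0874). The 2 genes of chromosome structure were not among them: MKI67 was at -0.17 and TOP2A, the topoisomerase that untangles chromosomes, at 0.07 on the log2 scale, and CENPF and NUF2, 2 kinetochore genes of the long arm of chromosome 1, were at -0.00 and -0.16. The 22 genes not called at D16 ran from -0.17 to 0.42.

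Blood cell markers also differed between the genotypes at D16. Mast cell, basophil and eosinophil markers (9 genes) summed to 7046 to 11023 CPM in mutants and 34699 to 63826 CPM in WT, and neutrophil markers (14 genes) to 3393 to 5167 CPM and 5453 to 12817 CPM. Of the 9 mast cell, basophil and eosinophil markers 6 were called lower and 1 higher. Of the 13 neutrophil markers tested 11 were called lower and 1 higher. Erythroid markers (11 genes) summed to 849 to 1331 CPM in mutants and 375 to 698 CPM in WT. Megakaryocyte markers (8 genes) summed to 1292 to 1442 CPM and 857 to 906 CPM. Of the 10 erythroid markers tested 5 were called higher and 1 lower, and of the 8 megakaryocyte markers 7 higher and 0 lower. Of all genes, 13.1% were called higher and 15.3% lower. Pluripotency markers were at 189 to 208 CPM in mutants and 82.5 to 134 CPM in WT, with PRDM14 at 0 in both. Monocyte and macrophage markers (10 genes) summed to 566 to 734 CPM in mutants and 260.3 to 491 CPM in WT, and 5 of the 9 tested were called higher and 1 lower. Endothelial markers (6 genes) overlapped in their sums, at 396 to 441 CPM in mutants and 332 to 410.0 CPM in WT, and 4 of 6 were called higher and 0 lower. Of the 8 progenitor markers, whose sums did not overlap, 1 was called higher and 4 lower in mutants (median log2 fold change -0.40). The part of these markers in the result on mitosis genes was not tested.

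At D30, where the libraries are of mature blood cells, the difference ran the other way: 0 of the 34 genes were called higher and 15 lower in mutants, when 10.8% of the 14263 genes tested were called higher and 9.75% lower. Of the 34, 33 had a negative log2 fold change, with a median of -0.66 against -0.01 over all genes tested, and BUB3 (0.07) was the exception. All 3 mutant libraries lay below all 3 WT libraries for 23 members, and for 18.1% of all genes. The count was 5 without WT replicate 1, 6 without WT replicate 2, 9 without mutant replicate 3, 12 without mutant replicate 2 and 21 without mutant replicate 1, where 5.67%, 4.52%, 6.25%, 9.14% and 8.0% of all genes were called lower. It was 8 with the deposited transcript lengths as offsets, where 6.26% of all genes were. Of the 15, CCNB1, CDK1, KIF11, KIF20A, MKI67, NUF2 and PRC1 were then still called, and CENPA was new. The D16 and D30 comparisons share no library.

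Among the kinesin motors, KIF20A, which works in cytokinesis and whose promoter has TTTAAA, had the largest fold at D30. It had 6.99, 9.84 and 8.26 CPM in mutants and 21.2, 17.5 and 13.7 CPM in WT, and fell by 1.06 on the log2 scale (SE 0.24, adjusted p = 0.0255, edgeR). KIF11, the motor that pushes spindle poles apart, had 20.7, 18.3 and 14.7 CPM in mutants and 34.8, 35.6 and 30.8 CPM in WT (log2 -0.90, SE 0.17, adjusted p = 0.0136). KIF11 and KIF20A kept their calls in all 16 alternatives tried at D30. TOP2A had 77.3, 79.0 and 50.9 CPM in mutants and 159, 164 and 115 CPM in WT (log2 -1.07, SE 0.21, adjusted p = 0.0138). Its fold was -0.71 (adjusted p = 0.223) with transcript lengths as offsets. MKI67 had 218, 161 and 137 CPM in mutants and 370.2, 364 and 236 CPM in WT (log2 -0.91, SE 0.23, adjusted p = 0.0366). Its highest mutant library lay below its lowest WT library.

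Of the kinetochore genes, 4 of 5 were called lower at D30: CENPF, NUF2, NDC80 and the motor CENPE. CENPF had 74.8, 57.4 and 46.6 CPM in mutants and 128, 112 and 96.3 CPM in WT (log2 -0.91, SE 0.19, adjusted p = 0.0204), and NUF2 had 3.14, 4.5 and 2.93 CPM in mutants and 7.99, 7.4 and 8.39 CPM in WT (log2 -1.14, SE 0.27, adjusted p = 0.0304), the largest fold change of the 15. NUF2 overlaps RGS5 in the genome, and no source says if reads were assigned by strand. NDC80 (-0.80, adjusted p = 0.0472) was at -0.17 (adjusted p = 0.851) with transcript lengths as offsets, and CENPE was at -0.85 (0.0561). Of the checkpoint genes, BUB1 had 18.2, 18 and 17.9 CPM in mutants and 27.5, 29.6 and 25.6 CPM in WT (log2 -0.61, SE 0.15, adjusted p = 0.0352), and BUB1B, BUBR1 of the checkpoint, had 10.4, 11.6 and 14.1 CPM in mutants and 25.5, 26.1 and 17.1 CPM in WT (log2 -0.94, SE 0.23, adjusted p = 0.0311). BUB1B shares its strand with BUB1B-PAK6 and PAK6, so its counts are uncertain. With transcript lengths as offsets it was at -0.93 with an adjusted p of 0.391. MAD2L1, highest in fold at D16, was at -0.24 (adjusted p = 0.638), with 4.66, 7.0 and 9.33 CPM in mutants and 7.61, 8.38 and 8.18 CPM in WT.

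The other genes called lower at D30 were CCNB1 (16.5, 12.2 and 9.6 CPM in mutants and 29, 22.8 and 21 CPM in WT; log2 -0.90, adjusted p = 0.0383), CDK1 (-0.88, 0.0491), PRC1, which bundles the midzone and whose promoter holds TTTGAA (-0.75, 0.0499), KIF2C (-0.69, 0.076) and NUSAP1 (-0.78, 0.0804). CDK1 had 13.9, 15.8 and 8.26 CPM in mutants and 26.7, 25.2 and 19.8 CPM in WT, and CENPE had 23.6, 21.6 and 14.7 CPM in mutants and 46.6, 36.1 and 26.8 CPM in WT. Neither gene had overlapping groups. None of the 3 passenger complex genes was called: BIRC5 was at -0.17, INCENP at -0.18 and AURKB at -0.63. None of the 3 genes of anaphase onset was called either, with ESPL1, which is separase, at -0.54. The 19 genes not called ran from -0.93, at CDC25C, to 0.07. Both calls, higher at D16 and lower at D30 in mutants, fell on 6 genes: BUB1, BUB1B, CCNB1, KIF11, KIF2C and NDC80. With transcript lengths as offsets, only CCNB1 and KIF11 of these had both calls. With 12 and 15 genes called, some would share both calls without any link. The share of all genes with both calls was not counted, so the overlap is a description only. In all 21 genes were called on either day, and 13 on neither.

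**Figure D4:**
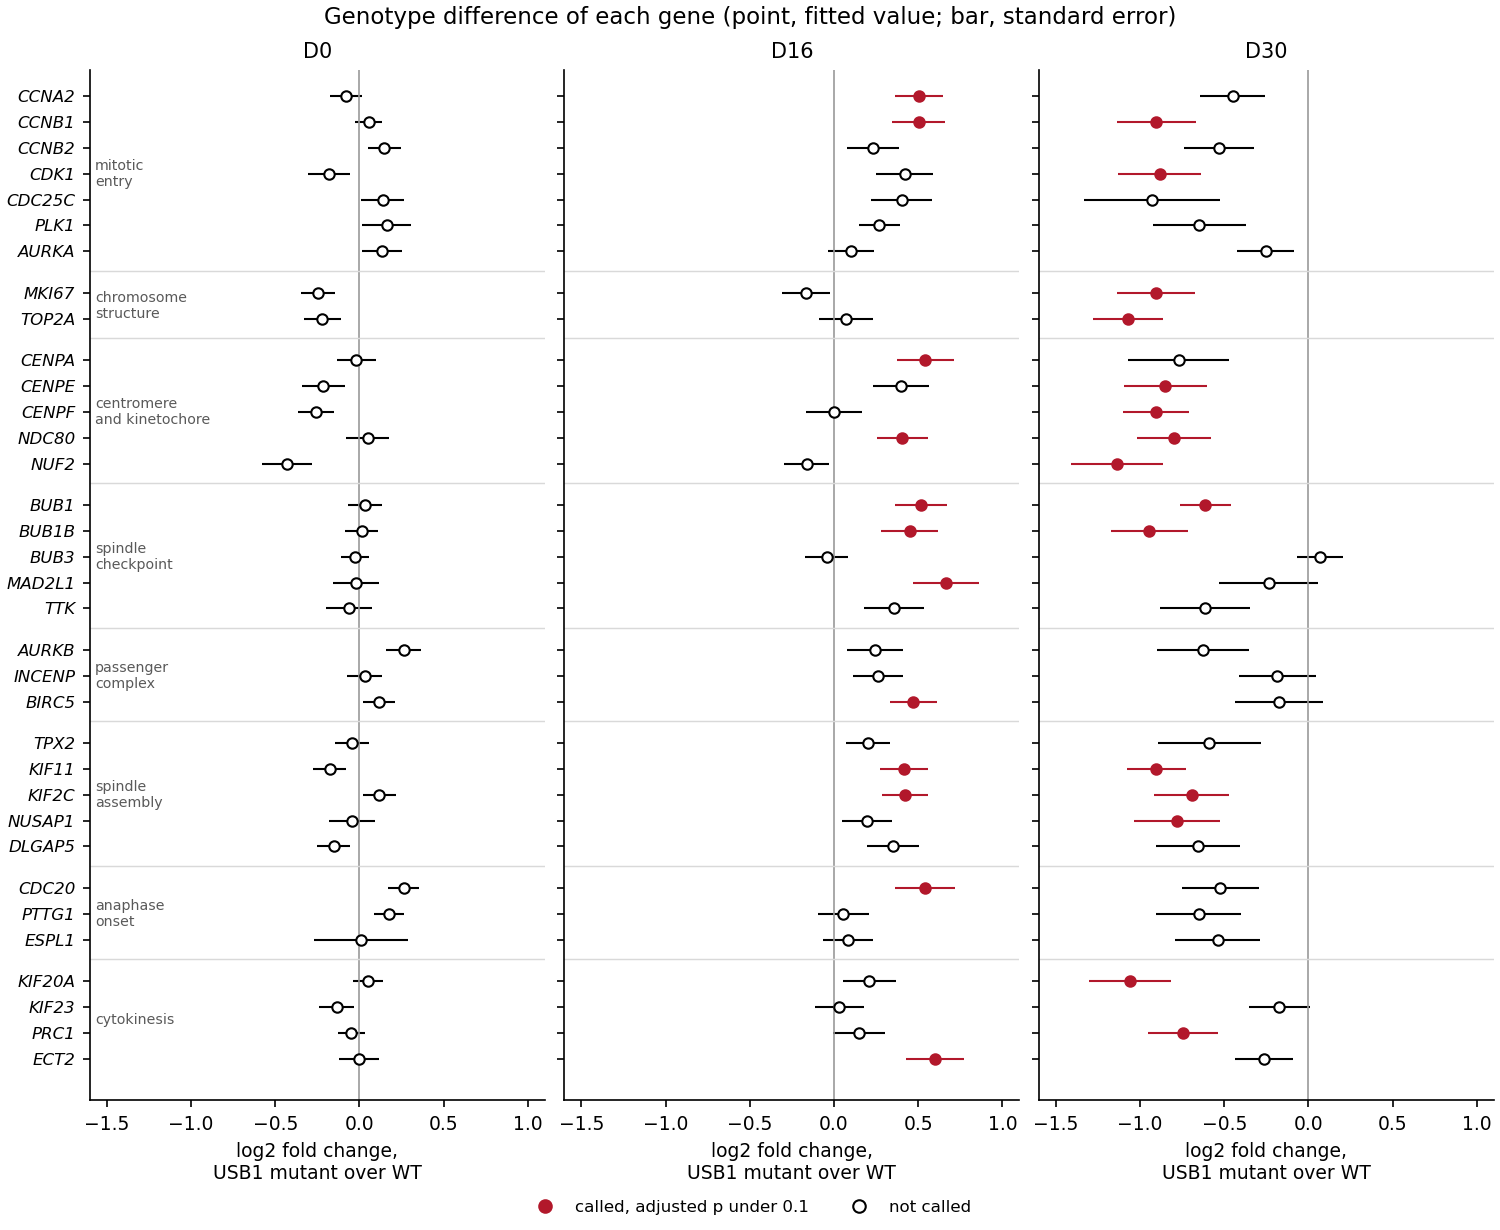
Log2 fold change of USB1 mutant over WT for each of the 34 genes at D0, D16 and D30 (x axis, with bars of 1 SE), genes by role. Values are from the fits of single days, without the replicate block. Filled points were called at an adjusted p under 0.1: 0 at D0, 12 above zero at D16 and 15 below zero at D30, with BUB3 close to zero on every day.

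Blood cell markers differed between the genotypes at D30 as well. Erythroid markers summed to 42115 to 66184 CPM in mutants and 11118 to 14598 CPM in WT. Neutrophil markers summed to 436 to 1547 CPM in mutants and 3474 to 8155 CPM in WT, and macrophage markers (10 genes) to 1824 to 2728 CPM and 3619 to 4515 CPM. Endothelial markers summed to 154 to 232 CPM and 278 to 343 CPM, with 1 of 4 tested called higher and 1 lower. Progenitor markers overlapped, at 1554 to 2098 CPM in mutants and 1631 to 1756 CPM in WT. What part these markers have in the D30 result on mitosis genes was not tested.

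The change between days asks how these genes behave as the cells differentiate. It was fitted over all 18 libraries, in which the D16 libraries enter the D16 and the D30 changes, so these tests are not independent. From D0 to D16, 15 of the 34 genes were higher and 9 lower at D16 in mutants, when 36.9% of 16829 genes were called higher and 36.0% lower, and 8 were higher and 13 lower in WT, against 37.0% and 39.3%. The 8 genes higher in both genotypes were BUB3, CCNB2, MKI67, NUF2, NUSAP1, PRC1, PTTG1 and TOP2A. MKI67 had 575 to 759.7 CPM at D16 and 164 to 196 CPM at D0 in mutants (log2 1.87), and 699 to 749.7 CPM and 198 to 229 CPM in WT (log2 1.76). CDC20 was lower in both, by log2 -1.26 in mutants and -1.58 in WT, and MAD2L1 by -0.65 and -1.37. BUB1, CCNA2, CDK1, CENPE, KIF11, KIF2C and NDC80 passed in mutants and not in WT. Of these 7 genes, the test of the difference itself called CCNA2 and KIF11, and neither with the replicate number as a block.

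From D16 to D30, all 34 genes were lower at D30 in mutants and 33 in WT. Of all genes, 35.1% were called lower and 34.7% higher in mutants, and 35.1% lower and 31.6% higher in WT. The exception in WT was ESPL1 (log2 -0.50, adjusted p = 0.117). The median log2 change was -2.74 in mutants and -1.58 in WT. In mutants BUB1 changed most, by -3.48, and INCENP least, by -0.85, against -2.32 and -0.37 in WT. NUF2 (-3.35 in mutants, -2.37 in WT) and TTK (-3.30, -2.31) followed. BUB3 was at -1.03 in mutants and -1.10 in WT. With transcript lengths as offsets, 33 genes were called lower in mutants and 30 in WT. Of all 16829 genes, 5310 and 5115 were then called lower. ECT2 lost its call in both genotypes, and BIRC5 and BUB1B lost theirs in WT. By TPM, ECT2 had 36.5 ± 2.80 at D16 and 52.0 ± 6.66 at D30 in WT, and 52.6 ± 3.96 and 46.3 ± 10.8 in mutants.

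The test of whether the genotype difference itself differed between days uses the same fit and libraries. For D30 against D16, 28 of the 34 genes were called, all lower at D30, when 10.2% of genes were called so and 10.3% in the other direction. The median difference was -0.99 on the log2 scale. KIF11 was at -1.35 (SE 0.20, adjusted p = 0.000409), BUB1 at -1.17 (SE 0.20, adjusted p = 0.00111) and CCNB1 at -1.42 (SE 0.25, adjusted p = 0.00127). In KIF11 the mutant libraries were above WT at D16 (138 to 174 against 102 to 135 CPM) and below WT at D30 (14.7 to 20.7 against 30.8 to 35.6 CPM). The 6 genes not called were AURKA, BIRC5, BUB3, ESPL1, INCENP and KIF23. In the fits of single days 8 of the called genes had passed on neither day: AURKB, CCNB2, CDC25C, DLGAP5, PLK1, PTTG1, TPX2 and TTK. In the fit over 18 libraries, from which this test comes, all 8 were called lower at D30, when 14.0% of all genes were. PLK1, a kinase of mitotic entry, had 85, 89.2 and 95 CPM in mutants and 72.8, 65.7 and 79.2 CPM in WT at D16, and 34.5, 21.8 and 22.9 CPM in mutants and 42.9, 54.1 and 27.2 CPM in WT at D30 (difference -0.95, adjusted p = 0.0433). TTK, the checkpoint kinase MPS1, had 54.7 to 83.1 CPM in mutants and 42.8 to 55.8 CPM in WT at D16, and 5.27 to 7.67 CPM in mutants and 8.18 to 12.4 CPM in WT at D30 (-0.99, 0.0329). PTTG1 was at -0.72 and DLGAP5, which stabilizes spindle fibres, at -1.02. AURKB was at -0.89, CCNB2 at -0.81, TPX2, the activator of AURKA, at -0.82, and CDC25C at -1.39. Of the genes not called, AURKA (-0.39) and the midbody motor KIF23 (-0.24) had adjusted p of 0.203 and 0.478. Without replicate 2 of every group 13 genes were called, when 623 of 16683 genes were called lower. With transcript lengths as offsets 19 were called, when 1182 of 16829 genes were called lower. AURKB, BUB1B, CENPE, CENPF, ECT2, MAD2L1, NDC80, NUF2 and TOP2A were then not called. With any 1 library of D16 or D30 left out, an alternative chosen after seeing the data, 23 to 29 were called. For D16 against D0, 2 genes were called, CCNA2 (0.62, SE 0.20, adjusted p = 0.0937) and KIF11 (0.63, SE 0.19, adjusted p = 0.0746), when 3.86% of genes were called higher and 3.75% lower, and this count was 0 with the replicate block, with replicate 1 or 2 left out, with lengths as offsets, with scaling without cell cycle genes and at an adjusted p under 0.05. For D30 against D0, 15 genes were called lower, when 4.48% were called lower and 6.42% higher. Without replicate 2 there were 0, when 158 of 16683 genes were called lower.

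Other cell cycle genes were described from lists of further mitosis genes (118), DNA replication genes (40) and regulators (25). At D16, 18 of the 118 mitosis genes were called higher and 4 lower in mutants, with a median log2 fold change of 0.19. These shares, 15.3% higher and 3.39% lower, stand beside 13.1% and 15.3% of all genes, so the share called higher was near that of all genes. Of those called higher, the mitotic kinase PBK had 16.1, 14.2 and 10.9 CPM in mutants and 6.62, 6.72 and 7.0 CPM in WT (log2 0.98). SPDL1, which recruits dynein to kinetochores, was at 0.70. Of the 4 called lower, ENSA was at -0.46 (edgeR, adjusted p = 0.0215). Of the replication genes 10 (25%) were called higher and 0 lower (median 0.31), with the helicase subunit MCM2 at 0.55 and geminin, GMNN, at 0.61. At D30, 17 of the 118 were lower and 5 higher (median -0.33), and of the replication genes 5 were lower and 0 higher (median -0.29). The shares called lower, 14.4% and 12.5%, stand beside 9.75% of all genes. CEP55, which is needed for abscission, had 6.18, 7.17 and 5.6 CPM in mutants and 20.8, 22.1 and 18.7 CPM in WT, and fell by 1.69 on the log2 scale (adjusted p = 0.00295). ANLN, ASPM and the condensin subunit NCAPH were at -1.04, -1.13 and -1.01. RRM2, a subunit of ribonucleotide reductase, was at -0.79.

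CDKN1A, the CDK inhibitor p21, was the 1 regulator called higher at D0, with 46, 38.8 and 44.9 CPM in mutants and 28.6, 22.3 and 23.3 CPM in WT (log2 0.81, SE 0.12, adjusted p = 0.0147). At D30 it had 517, 524 and 558 CPM in mutants and 218, 262 and 328 CPM in WT (log2 0.99, SE 0.18, adjusted p = 0.0104), and at D16 it was at -0.01. Its groups did not overlap at D0 or D30. At D16 RBL2 (-0.56) and LIN9 (-0.42), both subunits of the complexes that bind the CHR, were lower. FOXM1 was at -0.07, 0.06 and -0.51 at D0, D16 and D30, and MYBL2, which encodes B-MYB, at 0.10, -0.06 and -0.40, and neither was called on any day. At D30 E2F8 was lower (-0.94) and E2F2 (0.84) and E2F4 (0.78) were higher.

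**Figure D5:**
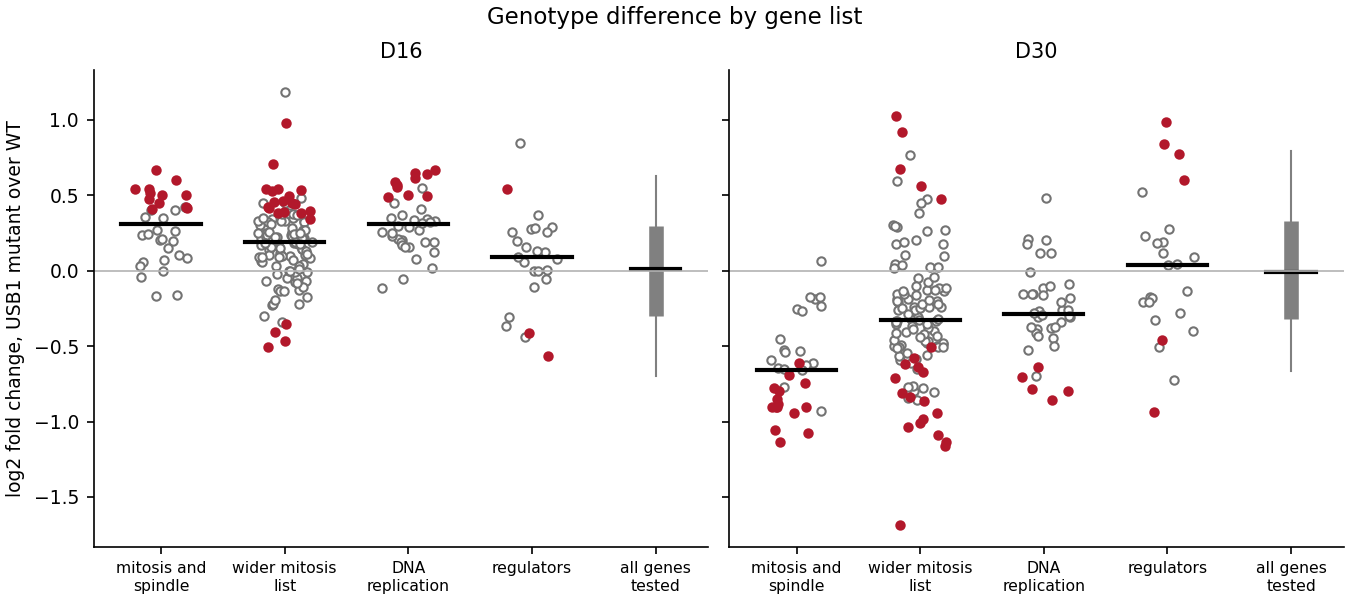
Log2 fold change of USB1 mutant over WT (y axis) at D16 and D30 for the mitosis and spindle genes, the wider list of mitosis genes, DNA replication genes and regulators, 1 point per gene (filled, called) with a line at the median. The grey bar spans the middle of all genes tested (25th to 75th percentile, thin line 10th to 90th). The medians of the 34 genes are 0.31 at D16 and -0.66 at D30, and those of all genes are 0.01 and -0.01.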

How the data were processed

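Total RNA of the 18 libraries was depleted of rRNA and made into strand-specific libraries. Per the submitters' processing notes and the methods, Trimmomatic 0.36 trimmed the reads and Salmon 0.13.1 quantified transcripts of Ensembl release 99 (GRCh38); genes were tested by the authors with DESeq2. The authors deposited, per gene and library, the expected count summed over transcripts by Salmon, the TPM and the mean transcript length. The expected counts were rounded here before testing. TPM was used as deposited to compare genes, and length served as an offset in an alternative. There were 0 per-sample columns of no listed sample. Symbols came from GENCODE v44, which matched 35051 identifiers. CCNA2, CDC25C, PLK1, CENPA, NUF2, BUB1B, NUSAP1, KIF20A, KIF23, KIF11, NDC80, CENPF and PRC1 overlap other genes (KIF11, NDC80 and CENPF only pseudogenes on the other strand), and PTTG1 has near-identical copies, so their counts are less certain.

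Each day was fitted with edgeR 4.0.16 in R 4.3.3 (filterByExpr, TMM, glmQLFit, glmQLFTest) on its 6 libraries. Changes between days and interactions came from 1 fit of 18 libraries with 6 group means. Genes were called at adjusted p under 0.1 over all genes tested. Total counts of 4125125 to 19368927 limit the precision, and the common coefficient of biological variation was 0.130, 0.170 and 0.223 at D0, D16 and D30. Same-numbered libraries correlated in their deviations from the group means by 0.30, 0.16 and 0.24 at D0 and 0.12, 0.22 and 0.37 at D16. All were over 0.1, so the numbers may pair the libraries on those days. The main tests did not use this pairing, and called 0 members at D0 and 12 at D16. The replicate block, which does use it, called 6 and 14. This pairing comes from the data, since the labels give only the number. Alternatives were RLE scaling, scaling without cell cycle and the 20 most abundant genes, no filter, 5 CPM in 3 libraries, DESeq2 1.42.0, limma 3.58.1 (voom), transcript lengths, the replicate block, a stricter threshold of 0.05, leaving out the chromosome 1 long arm and each replicate. The scripts were tested on simulated counts with known fold changes.

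All members may be named. The 8 called genes with the smallest adjusted p per day (4 with the smallest p at D0) are given by library, and up to 4 genes per further list and day. The members and lists were chosen with earlier results of these data known.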

Additional observations from a re-analysis of the deposited data

Results flagged for a closer look

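The genotype difference of the 34 genes was not the same on each day, by edgeR's test of the interaction in the fit over 18 libraries. Between D16 and D30 it differed for 28 genes, all towards lower mutant levels at D30, when 10.2% of all genes were called so. On the log2 scale the difference was -1.35 for KIF11, -1.17 for BUB1, -1.42 for CCNB1, -1.44 for BUB1B, -1.35 for CENPA, -1.22 for NDC80, -1.30 for KIF20A and -1.14 for KIF2C. With transcript lengths as offsets 19 genes were called between D16 and D30, when 1182 of 16829 genes were called lower. BUB1B and NDC80 were not among them. Between D0 and D30 the genotype difference changed for 15 genes, all lower, when 4.48% of all genes were called lower. The change was -1.10 for KIF20A, -0.94 for CCNB1, -0.97 for BUB1B and -0.72 for KIF11. With lengths as offsets 8 genes were called, when 445 of 16829 were called lower, and BUB1B was not among them. Between D0 and D16 the genotype difference changed for 2 genes, KIF11 at 0.63 and CCNA2 at 0.62, both towards higher mutant levels at D16. These are 5.88% of the 34, near the 3.86% of all genes called higher. With the replicate block, with replicate 1 or 2 left out or at an adjusted p under 0.05, 0 genes were called between D0 and D16. The 3 interaction tests share libraries.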

How the results depend on the processing

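Between the genotypes on single days, no fold change of a single gene turned its direction under the alternatives where it was called. For the changes between days and the interactions, only the counts of called genes were compared in this way, and none turned. With the replicate block, 6 genes were called at D0 (against 0), 14 at D16 (against 12), 17 at D30 (against 15) and 28 for D30 against D16 (against 28). At D16 the range with 1 library left out was 0 to 19, when 6.77% to 19.5% of all genes were called higher. At an adjusted p under 0.05, 7 genes passed, and 1225 of all 14528 genes were higher. At D30 the range with 1 library left out was 5 to 21, when 4.10% to 9.14% of all genes were called lower. It was 8 genes under transcript lengths as offsets (6.26% of all genes called lower). In the fit over 18 libraries it was 26 (14.0%), of which 15 were those of the day fit (9.75%). For the mutant change from D0 to D16, leaving out a replicate gave 15 to 22 genes against 24. For the interaction of D16 against D0 (2 genes), 1 was called with RLE scaling, no count filter or at least 5 CPM, and 0 with scaling without cell cycle and abundant genes, lengths, the replicate block or a threshold of 0.05, and 0 to 4 with a replicate left out. For D30 against D16 it was 13 to 29, with 19 under lengths. For D30 against D0 it was 0 to 6, with 8 under lengths and 7 at the threshold of 0.05. The lowest counts, 13 and 0, came without replicate 2. There 623 and 158 of 16683 genes were called lower, against 1714 and 754 of 16829 with all libraries. At D30 same-numbered libraries correlated by 0.16, -0.05 and 0.29, so the numbers were not taken to pair the libraries. Of the fold changes of single genes under these alternatives, 6 gained a call at D0, 15 gained and 46 lost one at D16, and 21 gained and 37 lost one at D30. CDC25C had 7 to 69 counts at D30, which limits its precision.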
